A study of Drosophila melanogaster with 40 samples.

Results

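The nuclear genes of oxidative phosphorylation were described in whole fruit flies (Drosophila melanogaster) of different age, genotype and recovery time after heat shock. The set held every gene of the count table whose symbol began with ND-, COX, UQCR-, ATPsyn or Sdh. It came to 88 of 17609 genes: 63 subunits (34 of complex I, 4 of complex II, 6 of complex III, 8 of complex IV and 11 of complex V), 24 copies whose symbols end in L, or in L and a number (COX6AL2, COX7AL2, ND-51L1 and ND-51L2), as testis-type copies do, and Sdhaf3, an assembly factor of complex II. Flies were heat shocked, sorted into climbers and non-climbers by negative geotaxis, in which flies climb after being tapped down, and sampled during recovery. The groups were insulin-ablated old flies and insulin-ablated young flies (7 libraries each), in which the insulin-producing cells had been ablated, and wild-type old flies and wild-type young flies (13 libraries each). Ablated flies were taken at 0, 1, 2, 4, 6 and 8 h after heat shock as climbers only, and wild-type flies at the same hours as non-climbers and as climbers. The 4 control libraries, 1 per genotype at either age, were taken at 4 h without heat shock, and their behaviour was not assessed. The labels used here give no age in days, no sex and no ablation transgene.

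Oxidative phosphorylation takes place in the inner mitochondrial membrane. Complex I (NADH dehydrogenase) and complex II (succinate dehydrogenase) pass electrons to ubiquinone, complex III passes them to cytochrome c and complex IV (cytochrome c oxidase) to oxygen. Complexes I, III and IV pump protons, and complex V (ATP synthase) makes ATP as the protons flow back. A few subunits of complexes I, III, IV and V are encoded by the mitochondrial genome, while all others, and all of complex II, are nuclear. In flies the flight muscle is very rich in mitochondria, and several nuclear subunits have duplicate genes that are transcribed mainly in the testis.

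Libraries were made from the 3' ends of polyadenylated RNA of whole flies, and their counts ranged between 11714961 and 48747409 with a median of 19024004. Each condition had 1 library, so the spread behind every test was the scatter of libraries around a model in which age, genotype, hour and behaviour add up; whether it is biological or technical cannot be told apart. The summed level of the insulin-like peptide genes Ilp2, Ilp3 and Ilp5 was 0.0 to 1.01 CPM (counts scaled to the library's total times its TMM factor) in the 14 ablated libraries, against 1.06 to 4.01 CPM in the 26 wild-type libraries. A mean log2(CPM + 1) over 15 heat shock genes went against 2 labels. It was 4.94 in the library labelled ablated young control, against 3.0 to 3.97 in the other 3 controls, and 3.1 in the library labelled ablated young 6 h, against 5.11 to 5.86 in the other 6 h libraries. Noncoding transcripts divided the libraries into 28 (all wild type, and ablated young at 0 h and 1 h) and 12 (all other ablated libraries), a division called library set below. The 5 batches of the labels followed genotype, age and hour closely. The library of wild-type young non-climbers at 6 h carried male transcripts, described with the testis-type copies.

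Of the 63 subunits, 61 had enough counts to be tested. ND-MNLL, which coincides with another annotated gene, and UQCR-14, which lies inside a gene on the opposite strand, had no count in any library. Of the 24 copies, 7 were tested. Changes are log2 fold changes of edgeR's quasi-likelihood fit over all 11449 testable genes, with standard errors (SE), and a gene was called changed at a Benjamini-Hochberg adjusted p under 0.05. In whole-body RNA, fewer cells of a type and less RNA per cell cannot be told apart. Another gene overlapped 33 of the subunits, on the opposite strand for 29 of them, and the sources used here do not say whether strand was used in counting.

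The 5 complexes stood in the same order of the 4 groups. Summed over its subunits, complex I had a median of 4780 CPM in ablated old flies, 6750 CPM in ablated young flies, 3300 CPM in wild-type old flies and 4830 CPM in wild-type young flies. The medians of complex V were 5660 CPM in ablated old flies, 8920 CPM in ablated young flies, 4040 CPM in wild-type old flies and 6460 CPM in wild-type young flies. Both complexes were thus highest in ablated young flies and lowest in wild-type old flies. Complex II was the smallest sum, with medians of 536 CPM in ablated old flies, 864 CPM in ablated young flies, 408 CPM in wild-type old flies and 582 CPM in wild-type young flies. Complex III had medians of 1460 CPM in ablated old flies, 2260 CPM in ablated young flies, 1000 CPM in wild-type old flies and 1540 CPM in wild-type young flies. For complex IV the medians were 2870 CPM in ablated old flies, 4660 CPM in ablated young flies, 2170 CPM in wild-type old flies and 3440 CPM in wild-type young flies.

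Within either genotype, the old libraries lay below the young ones in the sums of complexes I, II, III and V. Over all subunits the sum was 14450 to 16480 CPM in ablated old flies, against 19550 to 28530 CPM in ablated young flies. It was 10050 to 13840 CPM in wild-type old flies, against 14740 to 17570 CPM in wild-type young flies. In complex IV the highest wild-type old library, non-climbers at 0 h, reached 2913 CPM, just above the lowest wild-type young library at 2907 CPM. The ratio of complex V to complex I was also lower in old flies. Its median was 1.23 in ablated old flies against 1.33 in ablated young flies, and 1.21 in wild-type old flies against 1.3 in wild-type young flies, although wild-type old libraries reached 1.29 and wild-type young ones started at 1.25.

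**Figure D1:**
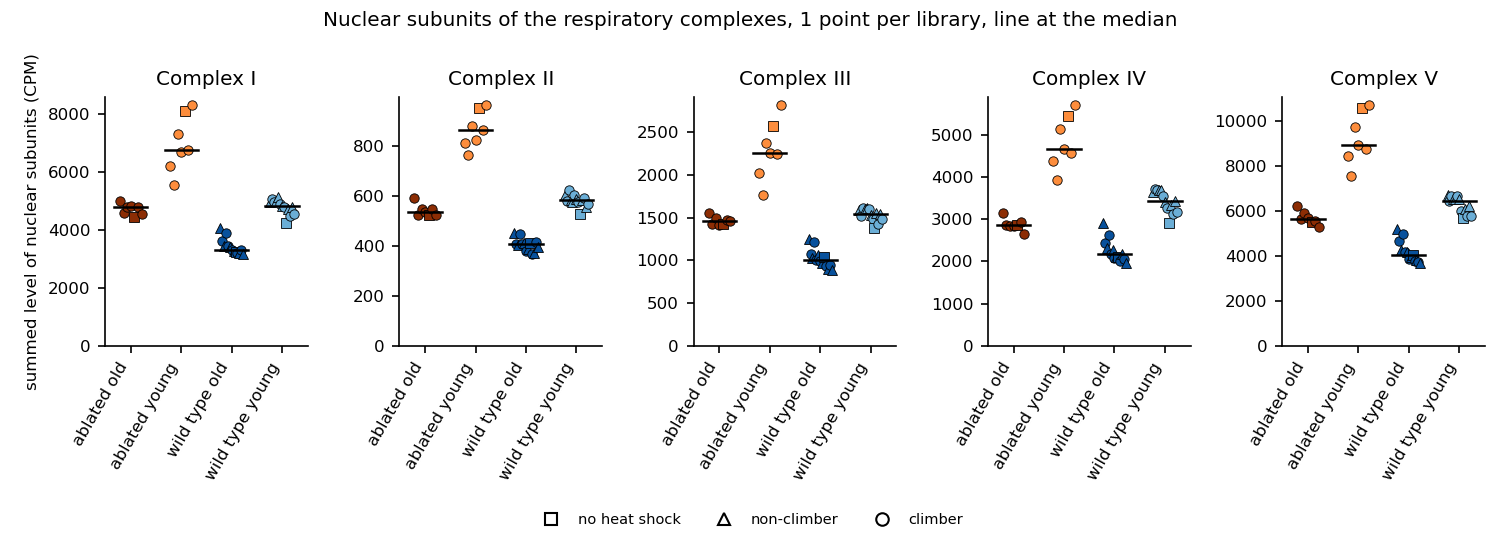
Summed level of each complex's subunits in CPM per library (one panel per complex, linear axes), for ablated old, ablated young, wild-type old and wild-type young flies. Circles are climbers, triangles non-climbers, squares controls without heat shock, and lines group medians; every complex has its highest median in ablated young flies and its lowest in wild-type old flies.

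In wild-type flies, 59 of the 61 subunits were lower in old than in young flies and 0 were higher. Over all genes tested, 11.7% were called lower and 11.8% higher. The median log2 fold change of the subunits was -0.53, which is 1.44-fold lower, against 0.02 over all genes. By complex the median was -0.45 for complex I (31 of 33 lower), -0.57 for complex II (4 of 4), -0.54 for complex III (5 of 5), -0.58 for complex IV (8 of 8) and -0.59 for complex V (11 of 11). In 32 subunits every old library lay below every young library, which held for 0.996% of all genes tested. In 58 subunits the old library was the lower one in all 13 pairs matched for hour and behaviour (share of all genes not counted).

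Among the complex I subunits, ND-75, an iron-sulfur protein of the NADH-oxidising module, had 60.1 to 93.1 CPM (median 80.5) in wild-type old flies, against 83.6 to 122 CPM (median 99.5) in wild-type young flies. The ranges overlapped, and the fall was small (log2 fold change -0.28 ± 0.08 SE, adjusted p = 0.01 in edgeR's quasi-likelihood test). ND-39, an accessory subunit, had 100 to 162 CPM (median 133) in wild-type old flies, against 186 to 284 CPM (median 233) in wild-type young flies. These ranges did not overlap (-0.78 ± 0.10, adjusted p = 7e-07). The accessory subunits ND-AGGG (-0.20 ± 0.16, adjusted p = 0.413) and ND-B16.6 (-0.14 ± 0.07, adjusted p = 0.167) did not pass the edgeR test.

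ND-B8, an accessory subunit of complex I, had the largest age change of all subunits. It had 1.57 to 5.47 CPM (median 3.38) in ablated old flies, against 13.9 to 26.5 CPM (median 16.4) in ablated young flies. It had 0.479 to 2.11 CPM (median 0.966) in wild-type old flies, against 7.11 to 11.8 CPM (median 9.24) in wild-type young flies. The wild-type old values rest on 10 to 39 counts per library. Old and young libraries did not overlap in either genotype. The edgeR log2 fold changes were -2.39 ± 0.23 in ablated flies (adjusted p = 4.15e-10) and -3.06 ± 0.25 in wild type (adjusted p = 1.3e-10). The gene lies at chr2L:4454626-4455207 on the plus strand (dm6 coordinates of the Ensembl annotation) and shares 71 bases with Gs1l on the opposite strand. Gs1l held 82961 counts, against 6996 for ND-B8. With age, Gs1l had log2 fold changes of 0.09 ± 0.09 in ablated flies and -0.33 ± 0.09 in wild type. The part of reads shared with Gs1l in the ND-B8 changes was not tested.

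All 4 subunits of complex II fell with age in wild type. SdhA, the flavoprotein that oxidises succinate, had 127 to 175 CPM (median 143) in wild-type old flies, against 182 to 246 CPM (median 225) in wild-type young flies, with no overlap (-0.60 ± 0.07, edgeR adjusted p = 5.69e-08). SdhD, a membrane anchor, had medians of 64.1 CPM in wild-type old flies and 94.4 CPM in wild-type young flies (-0.69 ± 0.08, edgeR adjusted p = 5.21e-08). In complex III, UQCR-C2, a core protein, had 99.9 to 156 CPM (median 132) in wild-type old flies, against 175 to 256 CPM (median 206) in wild-type young flies. Those ranges were also separate (-0.59 ± 0.09, edgeR adjusted p = 6.47e-06).

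COX4, a nuclear subunit that sits beside the mitochondrially encoded catalytic core of complex IV, had 367 to 509 CPM (median 389) in wild-type old flies, against 533 to 810 CPM (median 704) in wild-type young flies. No library of one age reached the other (-0.74 ± 0.08, edgeR adjusted p = 6.34e-08). COX5A overlapped between the ages, at 198 to 331 CPM (median 226) in wild-type old flies, against 305 to 425 CPM (median 396) in wild-type young flies (-0.74 ± 0.10, edgeR adjusted p = 6.22e-07). In complex V, ATPsynbeta, which carries the catalytic sites, had 470 to 647 CPM (median 548) in wild-type old flies, against 756 to 933 CPM (median 840) in wild-type young flies. ATPsynO, part of the stalk that holds the catalytic head, had 276 to 459 CPM (median 347) in wild-type old flies, against 517 to 671 CPM (median 599) in wild-type young flies. Both were separate between the ages, with edgeR log2 fold changes of -0.58 ± 0.08 (adjusted p = 7.64e-07) for ATPsynbeta and -0.76 ± 0.09 (adjusted p = 9.97e-08) for ATPsynO.

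Wild-type age was partly bound up with batch, since batch 1 held young flies only and batch 3 old flies only. Batch 2 held 3 old and 5 young wild-type libraries. Within it, 60 of the 61 subunits were lower on average in the old libraries, with a median log2 ratio of -0.33 against 0.01 over all genes. In 39 subunits all old libraries of batch 2 lay below all young ones, against 6.96% of all genes. With batch as a term of the edgeR fit, 2 subunits were called lower with a median of -0.32, and 0.614% of all genes were called in either direction. The old libraries of batch 2 were from 0 h and 1 h and its young libraries were the control and those from 6 h and 8 h, so hour differed too.

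In ablated flies, 59 of the 61 subunits were also lower in old than in young flies and 0 were higher. Over all genes, 21.3% were called lower and 15.7% higher. The median log2 fold change was -0.65, which is 1.57-fold lower, against 0.00 over all genes. It was -0.59 for complex I (33 of 33 lower), -0.71 for complex II (3 of 4), -0.66 for complex III (5 of 5), -0.73 for complex IV (7 of 8) and -0.75 for complex V (11 of 11). In 43 subunits every old library lay below every young one, which held for 7.59% of all genes. In all 7 pairs matched for hour, 53 subunits were lower (share of all genes not counted). All ablated old libraries were of batch 5. Of the ablated young libraries only that of 8 h was of batch 5, the others being of batch 4. With batch as a term the subunits' median was -0.93. That value rests on the 1 young library of batch 5, whose subunit sum of 28530 CPM was the highest of all libraries. Age and batch can thus hardly be told apart in ablated flies.

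The members with the largest falls came from complexes I, IV and V. ATPsynB, a subunit of the peripheral stalk, had 288 to 336 CPM (median 321) in ablated old flies, against 470 to 793 CPM (median 662) in ablated young flies (-1.04 ± 0.09, edgeR adjusted p = 1.71e-11). COX6B had 345 to 411 CPM (median 363) in ablated old flies, against 630 to 840 CPM (median 768) in ablated young flies (-1.03 ± 0.07, edgeR adjusted p = 5.38e-14). Neither gene overlapped between the ages. The core and catalytic subunits fell by 0.62 on the log2 scale for ND-75, by 0.81 for SdhA, by 0.74 for UQCR-C2, by 0.82 for COX4 and by 0.82 for ATPsynbeta, all with SE of 0.07 to 0.09. ND-39 fell by 0.94 ± 0.10.

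Both ablated exceptions overlapped between the ages. COX7A, a small subunit of complex IV, had 152 to 189 CPM (median 162) in ablated old flies, against 145 to 182 CPM (median 171) in ablated young flies (0.01 ± 0.07, edgeR adjusted p = 0.94). SdhB, the iron-sulfur subunit of complex II, had 99.9 to 118 CPM (median 107) in ablated old flies, against 78.9 to 161 CPM (median 131) in ablated young flies (-0.18 ± 0.10, edgeR adjusted p = 0.168). The ablated young libraries of 0 h and 1 h were the low ones for SdhB, at 87.5 and 78.9 CPM, and all other ablated young libraries had 119 to 161 CPM. SdhA ran the other way, with 297 and 290 CPM in those 2 libraries and 202 to 242 CPM in the other ablated young ones. These 2 libraries belong to the library set of the wild-type flies.

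**Figure D2:**
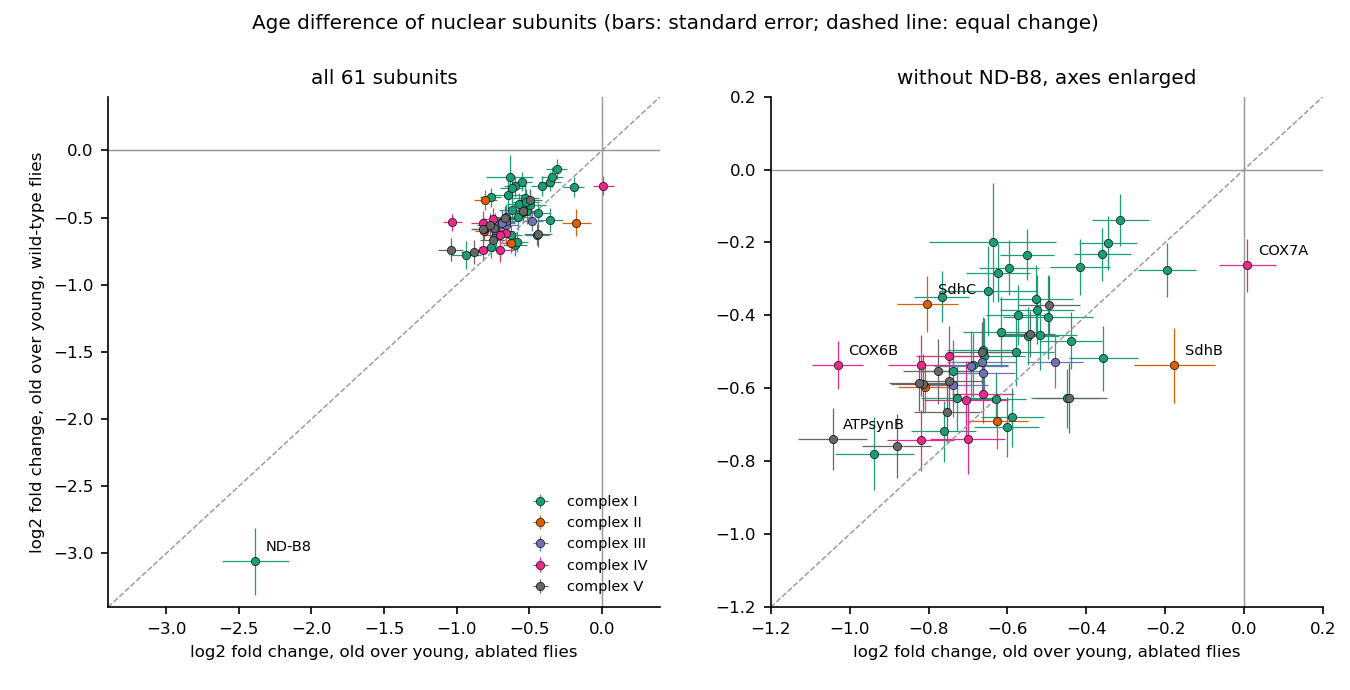
Log2 fold change of old over young flies for each tested subunit in ablated flies (x axis) and in wild-type flies (y axis), with bars of 1 SE and points coloured by complex; the right panel enlarges the main cloud without ND-B8. Nearly all subunits lie below 0 on both axes, while COX7A and SdhB lie near 0 in ablated flies.

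The age effect itself differed between the genotypes for 9 of the 61 subunits (edgeR quasi-likelihood test of the interaction). For 7 the old-over-young change was lower in ablated than in wild-type flies, and for 2 it was higher. Over all genes the interaction was called lower for 20.8% and higher for 15.5%. With library set as a term, 35 subunits were called, all lower (26.7% of all genes in either direction). When both ablated young libraries that went against their labels were also left out, 21 were called, all lower (22.0% of all genes). The subunits' median interaction was -0.14 on the log2 scale, against -0.08 over all genes. COX6B had the lowest interaction (-0.49 ± 0.09, adjusted p = 0.000101), followed by the membrane anchor SdhC of complex II (-0.43 ± 0.11, adjusted p = 0.00241). SdhB (0.36 ± 0.15, adjusted p = 0.0492) and COX7A (0.27 ± 0.10, adjusted p = 0.0359) were the higher ones. Neither of the higher calls held under DESeq2, nor with batch or library set as a term. COX6B shares 3112 bases on the same strand with CG18809, whose level was small beside it (20952 counts, against 476840 for COX6B).

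Muscle transcripts moved with age too. The summed level of 20 muscle markers (such as Mhc, Act88F and TpnC4), all of which passed the count filter, was 1563 to 2068 CPM (median 1910) in ablated old flies, against 4704 to 9459 CPM (median 6400) in ablated young flies. It was 2545 to 7859 CPM (median 2800) in wild-type old flies, against 3453 to 6595 CPM (median 4200) in wild-type young flies. The edgeR test called 20 of 20 markers lower in ablated old than in ablated young flies, with a median log2 fold change of -2.11. It called 9 of 20 lower in wild-type old than in wild-type young flies, with a median of -0.58. Without 1 wild-type old library, climbers at 1 h, the wild-type old range was 2545 to 3239 CPM. In that library muscle markers were above every wild-type young library (7859 CPM), and the subunits' sum was 13120 CPM. That sum was the second highest of the 13 wild-type old libraries, above the 11470 CPM of non-climbers at the same hour, and below the lowest wild-type young library at 14740 CPM. Ablated old flies had lower muscle marker sums than wild-type old flies but higher subunit sums. Single markers were divided, with 8 of 20 called lower and 1 higher in ablated than in wild-type old flies. The median of sls was 41.8 CPM in ablated old flies, against 588 CPM in wild-type old flies. That of Mlc2 was 241 CPM in ablated old flies, against 162 CPM in wild-type old flies. Apart from these measurements, the part of muscle RNA in the age results was not tested.

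**Figure D3:**
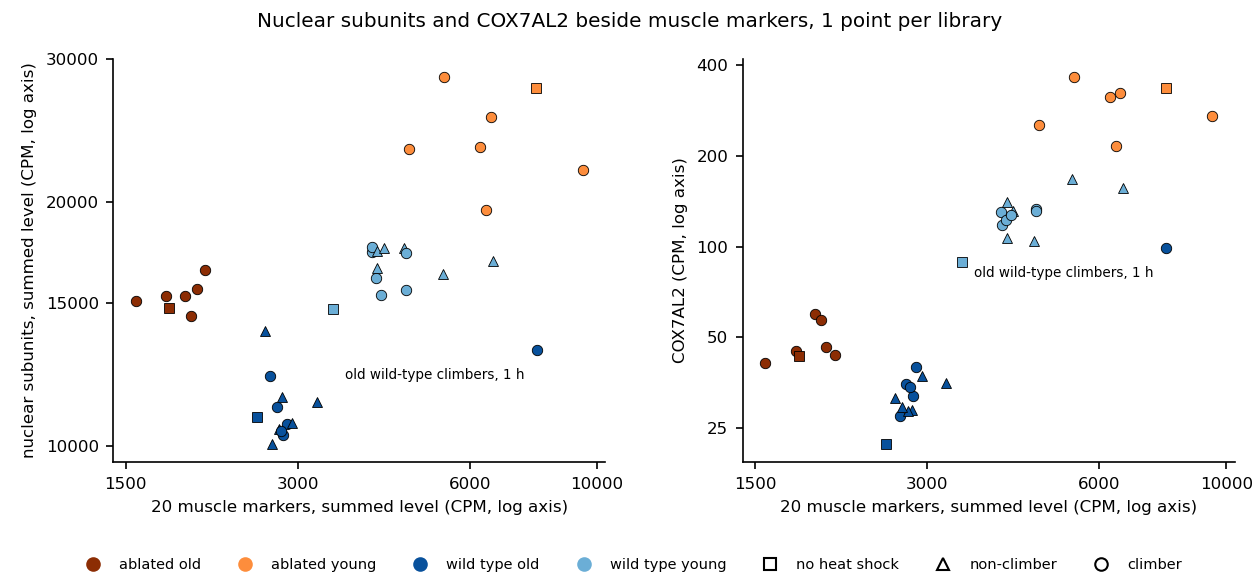
Summed CPM of 20 muscle markers in each library (x axis, log scale) against the summed CPM of all subunits (left) and the CPM of COX7AL2 (right), both on log scales, by genotype and age. The wild-type old climber library of 1 h is marked: its muscle sum is 7859 CPM, its subunit sum 13120 CPM and its COX7AL2 level 98.8 CPM.

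COX7AL2, a member named as a copy of COX7A, was not a rare transcript. It held 112819 counts and was detected in all 40 libraries, whereas the other 23 copies had at most 487 counts each over all libraries. The gene lies at chr2L:2192525-2197912 on the minus strand. It had 41.1 to 59.8 CPM (median 45.2) in ablated old flies, against 216 to 365 CPM (median 312) in ablated young flies, and 22.2 to 98.8 CPM (median 31.9) in wild-type old flies, against 88.6 to 168 CPM (median 130) in wild-type young flies. Ablated libraries of the 2 ages did not overlap, and in wild type the climbers at 1 h were the 1 old library that reached the young range. The edgeR log2 fold change of old over young was -2.63 ± 0.21 in ablated flies (adjusted p = 1.9e-11) and -1.60 ± 0.20 in wild type (adjusted p = 7.65e-07). The interaction was -1.03 ± 0.28 (adjusted p = 0.00459). Its partner COX7A had medians of 143 CPM in wild-type old flies and 174 CPM in wild-type young flies. The library with the muscle sum of 7859 CPM was the one in which COX7AL2 reached 98.8 CPM; the part of muscle RNA in COX7AL2's age change was not tested.

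In young flies, 59 of the 61 subunits were higher in ablated than in wild-type flies and 0 were lower. Over all genes, 18.2% were called higher and 14.8% lower. The median log2 fold change was 0.60, which is 1.52-fold higher, against 0.04 over all genes. By complex it was 0.58 for complex I (33 of 33 higher), 0.68 for complex II (3 of 4), 0.68 for complex III (5 of 5), 0.56 for complex IV (7 of 8) and 0.61 for complex V (11 of 11). In 41 subunits every ablated young library lay above every wild-type young climber or control library, which held for 4.09% of all genes. In all 7 matched pairs, 52 were higher (share of all genes not counted).

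SdhB was among the largest rises, at 78.9 to 161 CPM (median 131) in ablated young flies, against 55.7 to 73.4 CPM (median 63.3) in wild-type young flies (0.93 ± 0.10, edgeR adjusted p = 2.64e-08). Its partner SdhA overlapped between the genotypes, at 202 to 297 CPM (median 234) in ablated young flies, against 182 to 246 CPM (median 225) in wild-type young flies (0.14 ± 0.07, edgeR adjusted p = 0.0959). Within complex II, SdhA was thus the 1 subunit not called. ND-18, an accessory subunit, had medians of 158 CPM in ablated young flies and 74.5 CPM in wild-type young flies (0.94 ± 0.13, edgeR adjusted p = 6.85e-07), with ranges that overlapped. ATPsynD had 521 to 794 CPM (median 613) in ablated young flies, against 309 to 408 CPM (median 364) in wild-type young flies, without overlap (0.87 ± 0.08, edgeR adjusted p = 2.23e-09). ATPsynbeta, UQCR-C2 and COX4 rose by 0.67 ± 0.08, 0.74 ± 0.09 and 0.53 ± 0.08 on the log2 scale, and ND-75 by 0.29 ± 0.08. COX7A was again the other exception, with medians of 171 CPM in ablated young flies and 174 CPM in wild-type young flies.

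In old flies, 56 subunits were higher in ablated than in wild-type flies and 1, COX6B, was lower. Over all genes, 29.9% were called higher and 27.0% lower. The median log2 fold change was 0.49, which is 1.41-fold higher, against 0.08 over all genes. It was 0.49 for complex I (30 of 33 higher), 0.50 for complex II (3 of 4), 0.55 for complex III (5 of 5), 0.47 for complex IV (7 of 8) and 0.42 for complex V (11 of 11). In 44 subunits every ablated old library lay above every wild-type old climber or control library, which held for 12.7% of all genes. In all 7 matched pairs, 53 were higher (share of all genes not counted).

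SdhB again had one of the largest rises, at 99.9 to 118 CPM (median 107) in ablated old flies, against 37.3 to 49.9 CPM (median 42.7) in wild-type old flies. The groups were far apart (1.29 ± 0.10, edgeR adjusted p = 4.78e-12). SdhB lies opposite CG15237, which rose by 0.69 ± 0.12 in the same comparison. ND-24, of the NADH-oxidising module, had 85.6 to 128 CPM (median 114) in ablated old flies, against 63.8 to 76.7 CPM (median 67.7) in wild-type old flies, also without overlap (0.74 ± 0.08, edgeR adjusted p = 1.5e-09). The accessory subunit ND-B17.2 rose by 0.73 ± 0.09 and ATPsynD by 0.70 ± 0.08. ND-B8 rose by 1.68 ± 0.25, and Gs1l, its partner on the opposite strand, by 0.34 ± 0.09. SdhA (-0.07 ± 0.07), ND-75 (-0.05 ± 0.08), ND-AGGG (0.12 ± 0.16) and ND-B18 (0.08, adjusted p = 0.356) did not pass the edgeR test. COX6B had 345 to 411 CPM (median 363) in ablated old flies, against 368 to 557 CPM (median 414) in wild-type old flies, with a small overlap (-0.19 ± 0.07, edgeR adjusted p = 0.0116). Sdhaf3, the assembly factor, was called in this comparison alone (0.25 ± 0.09, edgeR adjusted p = 0.0149), at medians of 26.9 CPM in ablated old flies and 21.4 CPM in wild-type old flies.

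Genotype went together with library set. With library set as a term of the edgeR fit, 1 subunit was called in old flies (median -0.06), where every ablated library belongs to one set and every wild-type library to the other. In the same fit 17 were called in young flies (16 higher and 1 lower, median 0.24). The shares of all genes called in either direction were 4.3% in old flies and 14.5% in young flies, fewer than the shares given above without that term. With batch as a term, 0 subunits were called in old flies (median 0.27; 1.55% of all genes) and 26 in young flies, all higher (median 0.85; 1.57% of all genes). Ablated young climbers at 0 h and 1 h share the library set of wild type, and in them the subunits could be set against wild-type young climbers of the same hours (2 libraries each). There 57 of the 61 subunits were above 0, with a median log2 ratio of 0.27 against 0.08 over all genes. The ablated libraries of 0 h and 1 h were of batch 4 and the wild-type ones of batch 1. Genotype and batch thus cannot be told apart in this comparison. Muscle marker sums at 0 h and 1 h were 9459 and 6403 CPM in ablated young climbers, against 4053 and 4043 CPM in wild-type young climbers. The part of muscle RNA in this difference was not tested. At 2, 4 and 8 h, where the sets differ, 60 were above 0 with a median of 0.72 (3 libraries each). For these later hours no median over all genes was taken. The share of all genes above 0 was not counted for the early or the later hours. Genotype and library set cannot be told apart in old flies. Of the 20 muscle markers, 8 were lower and 1 higher in ablated than in wild-type old flies (median -0.28), and 12 were higher and 1 lower in ablated than in wild-type young flies (median 0.93). The subunits were higher at both ages.

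**Figure D4:**
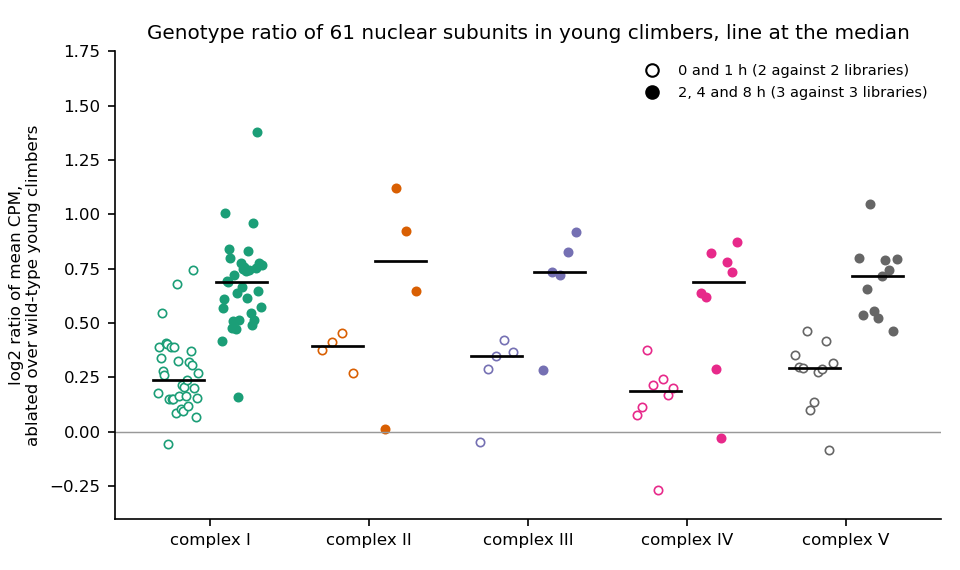
Log2 ratio of ablated over wild-type young climbers for each subunit, by complex: open points are means of 0 and 1 h, where both genotypes share a library set, and filled points means of 2, 4 and 8 h, where they do not. The median over subunits is 0.27 for the open points and 0.72 for the filled ones, for which no median over all genes was taken. Ablated and wild-type libraries were of different batches at all of these hours.

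Few subunits were called for recovery time, and none against controls without heat shock at any of the 6 hours (edgeR quasi-likelihood test, 0 of 61 each). For the hours 0, 1, 2, 4, 6 and 8, the shares of all genes called were 3.87%, 2.04%, 1.37%, 0.769%, 0.114% and 0.707%. An unadjusted p under 0.05 was reached by 3 subunits at 0 h, 2 at 1 h, 1 at 2 h and 0 later (shares of all genes at that p not given here). The median log2 fold changes over subunits, in the same order of hours, were 0.09, 0.03, 0.04, -0.02, -0.06 and 0.00. These fits pooled the groups, which did not all move alike. The subunits' sum at 0 h was 17530 (non-climbers) and 17340 CPM (climbers) in wild-type young flies, against 14740 CPM in their control. It was 13840 and 12180 against 10840 CPM in wild-type old flies, and 16480 against 14790 CPM in ablated old flies. In ablated young flies it was 21900 against 27670 CPM. There the control went against its label and the library set differed. In wild-type flies of either age, the 0 h libraries were of another batch than their control, so hour and batch cannot be told apart there. With batch as a term, the subunits' median at 0 h was 0.01 and 0 subunits were called. At 4 h, the hour of the controls, single subunits ranged between -0.15 and 0.21. With library set as a term and without both ablated young libraries that went against their labels, 13 subunits were called higher at 0 h, against 4.34% of all genes called in either direction. With library set alone, 0 were called. ND-75 at 0 h was closest to a call (0.33, adjusted p = 0.0567); DESeq2 called it (adjusted p = 0.0301), and so did edgeR when both ablated young libraries that went against their labels were left out (0.42, adjusted p = 0.0245).

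The median log2 fold change of 8 h over 0 h was -0.17 for complex IV and -0.17 for complex V, against -0.07 for complex I and -0.06 over all genes. COX6B and COX7A, both of complex IV, were called lower at 8 h than at 0 h. They are 2 of 61 subunits, near the 4.03% of all genes called lower. Neither was called with batch as a term, on size factors in place of TMM or without mitochondrial genome transcripts. Nor was either called without the count filter, without the 2 h libraries or in climbers and controls only. With library set as a term 9 subunits were called lower, against 11.1% of all genes called in either direction. COX6B had 661 and 562 CPM at 8 h in wild-type young non-climbers and climbers, against 710 and 696 CPM at 0 h. In wild-type old flies it had 387 and 408 CPM at 8 h, against 557 and 469 CPM at 0 h, in the same order of behaviour. In ablated flies it had 345 CPM at 8 h against 411 CPM at 0 h in old flies, and 840 CPM at 8 h against 819 CPM at 0 h in young flies. It was thus lower in 5 of 6 pairs, ablated young flies being the exception (-0.23 ± 0.07, edgeR adjusted p = 0.0324). COX7A was likewise lower in all pairs but that of ablated young flies (-0.24 ± 0.08, edgeR adjusted p = 0.0391). In an edgeR test of any difference among the 6 hours, these were the 2 subunits called, against 8.71% of all genes.

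**Figure D5:**
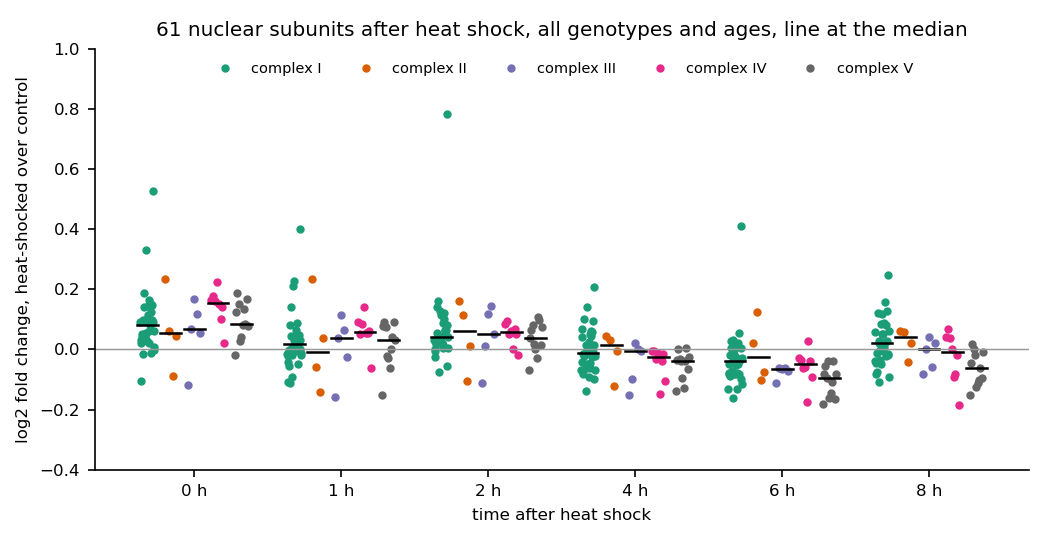
Log2 fold change of each subunit at 0, 1, 2, 4, 6 and 8 h after heat shock over controls without heat shock, by complex, on a linear axis. Complex medians lie between -0.09 (complex V at 6 h) and 0.16 (complex IV at 0 h), and at 4 h single subunits range between -0.15 and 0.21.

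Between non-climbers and climbers no subunit was called by the edgeR test (0 of 61, with 0 subunits at an unadjusted p under 0.05). Over all genes 0.0% were called, 429 genes had an unadjusted p under 0.05, and DESeq2 called 2.31% of genes and 0 subunits. The subunits' median log2 fold change of non-climbers over climbers was 0.02, with single values between -0.09 and 0.10. The trend over hours was a slope per unit of log2(hour + 1), fitted on wild-type heat-shocked flies. Between the ages no subunit was called for it by edgeR (0 of 61, against 0.183% of genes). DESeq2 called 4 subunits, against 4.05% of all genes. In edgeR's test 17 subunits reached an unadjusted p under 0.05, but the share of all genes at that p is not given here. The subunits with the smallest p were ATPsynB (-0.14, adjusted p = 0.178), ATPsynCF6 (-0.15, adjusted p = 0.194) and ATPsynG (-0.12, adjusted p = 0.301), all of complex V.

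Between genotypes the trend over hours differed for 15 subunits in climbers, all with a higher slope in ablated than in wild-type flies, against 2.5% of genes called higher. They were 10 of complex I, 2 of complex IV and 3 of complex V. The median difference was 0.13 per unit, against 0.02 over all genes. The largest was that of ND-MWFE, a small accessory subunit of complex I (0.26 ± 0.06, edgeR adjusted p = 0.0148). ATPsynF (0.20 ± 0.04, adjusted p = 0.012) and ND-30 of the quinone-side core (0.20 ± 0.04, adjusted p = 0.012) followed. With library set as a term, which changes between 1 h and 2 h in ablated young flies, 0 subunits were called, and likewise with batch as a term, as were 0.0% of all genes in both fits. Leaving out the 6 h or the 8 h libraries also left 0 called, and the other hours 3 to 9.

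The 23 testis-type copies other than COX7AL2 were close to the limit of detection. Together they had 253 counts of 14197820 in wild-type young non-climbers at 6 h, against 11 to 102 counts (median 49) in each of the other 39 libraries. In that library 10 of the 23 had their highest count, and COX6CL (12 counts), ND-24L (10 counts) and ND-20L (8 counts) had none elsewhere. SdhBL had 26 of its 97 counts there, ATPsynGL 24 of 31, UQCR-14L 15 of 20 and SdhAL 12 of 19. The same library had 144.9 CPM of testis markers, against 8.855 to 21.43 CPM in the others, and 169.7 CPM of accessory gland markers, against 0.03646 to 2.662 CPM in the others. Most of the 29 measured testis markers were highest there, and 3 (aly, sa and Prosalpha6T) were at 0. The male markers and these copies thus stood out in the same library, which was labelled no differently from the rest.

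The remaining copies with any signal were COX7CL (487 counts in all libraries), ATPsynepsilonL (403), ATPsynbetaL (273), ND-51L1 (200), UQCR-11L (164), COX4L (155), COX7AL (137), ND-51L2 (89), COX6AL (53), COX6AL2 (21), ND-49L (17), ATPsynCF6L (16), SdhCL (14), UQCR-6.4L (7) and ND-B14.5AL (3), while COX5BL had 0. ND-51L1 had 1 count in all ablated old libraries together, 33 in ablated young, 106 in wild-type old and 60 in wild-type young libraries. It was called lower in ablated old flies, both against ablated young flies (-4.00, edgeR adjusted p = 0.0186) and against wild-type old flies (-5.04, edgeR adjusted p = 0.00129); with so few counts these fitted values are no measure of size. UQCR-11L had 13 counts in ablated old, 35 in ablated young, 90 in wild-type old and 26 in wild-type young libraries, and was called higher in wild-type old than in wild-type young flies (3.08, edgeR adjusted p = 0.0319) and lower in ablated old than in wild-type old flies (-2.34, edgeR adjusted p = 0.0376). Both lie inside longer genes, Smurf and Acsl. COX7CL, ATPsynepsilonL, ATPsynbetaL and COX6AL were tested and not called for age or genotype.

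Other nuclear genes of oxidative phosphorylation, whose symbols do not carry these prefixes, formed a list of subunits, cytochrome c genes, assembly factors and ADP/ATP carriers. Of 13 tested, 9 were lower in ablated old than in ablated young flies (median -0.64) and 10 in wild-type old than in wild-type young flies (median -0.36). Between ablated and wild-type flies, 8 were higher and 2 lower in old flies (median 0.39), and 9 were higher in young flies (median 0.53). As background to this list and those below, 21.3% of all genes were lower with age in ablated flies and 11.7% in wild type. Of all genes, 29.9% were higher in ablated than in wild-type old flies, and 18.2% in young flies. Cyt-c1, the cytochrome subunit of complex III, had 262 to 290 CPM in ablated old flies, against 435 to 602 CPM in ablated young flies, with no overlap (-0.86 ± 0.07, edgeR adjusted p = 5.64e-11). blw, the alpha subunit of ATP synthase, fell by 0.96 ± 0.07 with age in ablated flies and by 0.22 ± 0.07 in wild type. It was 1 of the 2 that were lower in ablated than in wild-type old flies (-0.27 ± 0.07, edgeR adjusted p = 0.0026). The other was the ADP/ATP carrier sesB (-0.28 ± 0.09, edgeR adjusted p = 0.00845). ATPsynbeta was higher in the same comparison, but had a log2 fold change of -0.046 with library set as a term. Genotype cannot be told apart from library set in these old flies.

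Those mRNAs of the mitochondrial genome that were called, of 13 tested, had the same directions as the subunits. Between old and young flies, 7 were lower in ablated flies (median -0.41) and 9 in wild type (median -0.73). Between ablated and wild-type flies, 8 were higher in old flies (median 0.59) and 6 in young flies (median 0.44). None was called in the opposite direction in these 4 comparisons. mt:CoI, a catalytic subunit of complex IV, had 4000 to 5090 CPM in wild-type old flies, against 5670 to 9070 CPM in wild-type young flies, with no overlap (-0.73 ± 0.09, edgeR adjusted p = 2.17e-07). Genes of the tricarboxylic acid cycle and pyruvate dehydrogenase also fell with age, 12 of 15 in ablated flies and 10 of 15 in wild type. Between genotypes they were divided in ablated old flies (7 higher and 6 lower, against 29.9% and 27.0% of all genes). In ablated young flies 9 were higher and 0 lower, against 18.2% and 14.8% of all genes. Citrate synthase (kdn) had 62.9 to 75.2 CPM in ablated old flies, against 129 to 303 CPM in wild-type old flies (-1.42 ± 0.18, edgeR adjusted p = 5.19e-08). Genotype cannot be told apart from library set in these old flies. In ablated young flies kdn had 185 to 583 CPM, a range that held the 238 to 406 CPM of wild-type young flies.

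Known regulators of mitochondrial biogenesis had no common direction. Of 12 tested, 4 were higher and 2 lower with age in ablated flies, against 15.7% and 21.3% of all genes. In wild type 2 were higher and 2 lower with age, against 11.8% and 11.7% of all genes. Against wild type, 5 were higher and 3 lower in ablated old flies (29.9% and 27.0% of all genes). In ablated young flies 2 were higher and 1 lower (18.2% and 14.8% of all genes). TFAM, which packages mitochondrial DNA and takes part in its transcription, was lower in wild-type old than in wild-type young flies (-0.27 ± 0.06, edgeR adjusted p = 0.00127). TFAM was higher in ablated than in wild-type old flies (0.50 ± 0.06, edgeR adjusted p = 1.91e-08). In those old flies genotype cannot be told apart from library set. srl, the fly PGC-1 homologue, was higher in wild-type old than in wild-type young flies (0.39 ± 0.13, edgeR adjusted p = 0.031). It was lower in ablated than in wild-type young flies (-0.47 ± 0.13, edgeR adjusted p = 0.00616). Both fitted changes were opposite to those of the subunits. Ablated young flies had 90.3 to 218 CPM of srl (median 97.2), against 153 to 188 CPM (median 170) in wild-type young flies. The highest ablated young library thus lay above every wild-type young one. The part of library set in the srl difference was not tested. Of 15 genes of mitochondrial import and quality control, 3 were higher and 3 lower with age in ablated flies, and 1 was higher and 5 lower with age in wild type. In ablated flies against wild type, 9 were higher and 3 lower in old flies, and 2 were higher and 3 lower in young flies. The shares of all genes given for the regulators apply here too.

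Female germline and eggshell markers also varied. Their summed level was 13680 to 27130 CPM (median 19300) in ablated old flies, against 11190 to 22950 CPM (median 16200) in ablated young flies. It was 7122 to 25670 CPM (median 14000) in wild-type old flies, against 15120 to 37100 CPM (median 28500) in wild-type young flies. Of 22 markers tested, the edgeR fit called 3 higher and 0 lower with age in ablated flies, and 3 higher and 4 lower with age in wild type. Against wild type it called 3 higher and 1 lower in ablated old flies, and 8 lower in ablated young flies. The shares of all genes called higher and lower are those given for the regulators. The summed levels overlapped between the ages in either genotype, and the median was higher in old flies when ablated and lower in old flies when wild type, whereas the subunits were lower in old flies of both genotypes. The part of egg content in the subunits' levels was not tested.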

How the data were processed

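RNA of whole flies was sequenced from its 3' ends, read 1 only, and aligned with STAR 2.7.5a to dm6, per the submitters' processing notes. The authors deposited raw counts per gene for 40 libraries in 1 table. The counting tool, annotation and use of strand are not given in the sources used here. Symbols were matched for 17595 of 17609 gene identifiers, and positions taken from the Ensembl annotation. Counts were tested with edgeR 4.0.16 (R 4.3.3; quasi-likelihood, TMM factors, edgeR's filter on low counts, 11449 genes) in an additive model of genotype with age, hour, and behaviour by age, with 28 residual degrees of freedom and Benjamini-Hochberg adjustment over all genes. Slopes were fitted on the 24 wild-type heat-shocked and the 24 climber libraries. CPM are counts scaled to the library's size times its TMM factor. No 2 libraries held identical values. Library sizes ranged between 11714961 and 48747409 counts. Checks on simulated data preceded the fits. Alternatives were DESeq2 1.42.0, other scalings and filters, batch or library set as terms, and libraries left out. The members and lists were chosen with earlier results of these data known. Named genes are the members with the largest called changes per comparison, 1 core subunit per complex, every testis-type copy, and the called list genes with the smallest p; other genes were named after their values were seen. No sequences were used.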

Additional observations from a re-analysis of the deposited data

Results flagged for a closer look

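The change with age differed between genotypes, by edgeR's test of the interaction (ablated minus wild type, log2), for 12 members. In the same test 36.4% of all genes were called in either direction. It was lower in ablated flies for the copies ND-51L1 (-4.43), UQCR-11L (-4.25) and COX7AL2 (-1.03) and for the subunits COX6B (-0.49), SdhC (-0.43), ND-B18 (-0.42), ND-75 (-0.34), ND-13B (-0.33), ND-15 (-0.32) and ATPsynB (-0.30). It was higher for COX7A (0.27) and SdhB (0.36). The values of ND-51L1 and UQCR-11L rest on 1 and 13 counts in the ablated old libraries.

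The slope over hours differed between genotypes for 15 subunits (ablated minus wild type, log2 per unit of log2(hour + 1)). Over all genes 7.56% were called in either direction. In complex I the differences were 0.14 for ND-49, 0.15 for ND-B17, 0.18 for ND-B14.7, 0.18 for ND-ASHI, 0.18 for ND-19, 0.19 for ND-B14, 0.20 for ND-39, 0.20 for ND-30, 0.20 for ND-B14.5B and 0.26 for ND-MWFE. In complex IV they were 0.16 for COX5A and 0.18 for COX4, and in complex V 0.16 for ATPsynO, 0.17 for ATPsyndelta and 0.20 for ATPsynF. None was called with library set as a term.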

How the results depend on the processing

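Counts below are subunits called of the 61 tested, some with the share of all genes called in either direction in brackets. With batch as a term, 2 were called for age in wild type (0.614%), 26 for genotype in young flies (1.57%) and 0 for genotype in old flies (1.55%). In that fit 0 were called for 8 h against 0 h (2.38%) and 0 for the slope by genotype (0.0%). With library set as a term, 17 were called for genotype in young flies (14.5%) and 1 for genotype in old flies (4.3%). In the same fit 35, all lower, were called for age by genotype (26.7%), 9 for 8 h against 0 h (11.1%) and 0 for the slope by genotype (0.0%). A further alternative also left out the ablated young control and 6 h libraries, whose heat shock genes went against their labels. It was chosen after seeing the data. Its counts were 18, 0, 21, 10 and 0, against 15.8%, 3.88%, 22.0%, 12.2% and 0.0% of all genes. At 0 h against control it called 13 (4.34%). For 0 h against control, DESeq2 called 1 (7.92%), leaving out those 2 libraries alone gave 1, and leaving out single hours or controls gave 0 to 1. For 8 h against 0 h, DESeq2-type size factors, removal of mitochondrial genome transcripts, no filter on low counts and climbers only each gave 0, and leaving out single hours or controls 0 to 2. DESeq2 called 4 for the slope by age (4.05%). For the slope by genotype, size factors gave 6, removal of mitochondrial transcripts 8, no filter 6, and leaving out single hours 0 to 9. Signs turned with batch as a term for age by genotype of COX7A (-0.11), SdhB (-0.13), ND-51L1 (2.49) and UQCR-11L (2.35), for age in ablated flies of ND-51L1 (0.82) and for genotype in old flies of UQCR-11L (6.06). Genotype in old flies also turned with library set for ATPsynbeta (-0.046, and -0.064 without the 2 libraries) and COX4 (-0.096, and -0.095), and for UQCR-11L without the 2 libraries (0.69). The causes were not tested. Of 2942 values over 167 results and 21 settings, 2722 kept direction and side of the threshold, 177 lost the call, 32 gained it and 11 changed sign. No paired analysis was possible because no replicate number links libraries: each condition had 1 library, and the pairs matched for hour and behaviour were compared only by counting, hour and behaviour already being terms of the fit. Depth limits the testis-type copies, 16 of which had under 100 counts in all.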
